A study of Mus musculus with 7 samples.

Results

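The 10 genes described here encode receptors of the tumour necrosis factor (TNF) receptor superfamily: Tnfrsf9 (4-1BB), Tnfrsf4 (OX40), Tnfrsf18 (GITR), Cd27, Tnfrsf8 (CD30), Tnfrsf14 (HVEM), Tnfrsf1b (TNFR2), Tnfrsf1a (TNFR1), Fas and Tnfrsf10b (the mouse TRAIL receptor). They were picked by symbol from probes of the array that carry a single gene symbol. All 10 were found, with 1 probe each and no probe shared with another symbol, among 19752 genes measured. The RNA came from natural killer (NK) cells of the spleen, taken from male C57BL/6 mice aged 6 weeks and enriched by negative selection with an EasySep kit. In 4 samples (IL2 replicates 1 to 4) the cells had been in culture with interleukin 2 at 250 U/ml for 8 h, and in 3 samples (untreated replicates 2 to 4) they had been in culture for the same time with no IL2. Each sample was hybridised to an Affymetrix Mouse Gene 1.0 ST array. No genotype or other agent is named for either group, and the labels do not tie replicates to separate mice or cultures. The p-values therefore measure the spread between these samples only, which may be technical. All titles mark the arrays as re-analysed. For 3 arrays (untreated replicate 2, IL2 replicates 1 and 2) the time stands in another label but not in the title.

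Receptors of this superfamily are membrane proteins that bind trimeric ligands of the TNF family through cysteine-rich repeats. Most carry a tail that recruits TRAF adaptor proteins and leads to NF-kB and survival signals, as 4-1BB, OX40, GITR, CD27, CD30, HVEM and TNFR2 do. TNFR1, Fas and the TRAIL receptor carry a death domain instead and can start apoptosis. On lymphocytes, 4-1BB, OX40, GITR and CD30 are known as receptors that activation induces, while CD27 marks less mature NK cells in the mouse.

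With IL2, 2 of the 10 receptor genes were higher, Tnfrsf9 by 9.91-fold and Tnfrsf18 by 2.67-fold, and 0 were lower (limma, Benjamini-Hochberg adjusted p under 0.05 over all genes). Over all 19752 genes 2.08% were called higher and 0.901% lower. At an unadjusted limma p under 0.05 there were 4 receptor genes, which adds Tnfrsf10b (higher) and Tnfrsf1b (lower), beside 13.5% of all genes at that threshold. Every IL2 array lay above every untreated array for 4 receptor genes, against 6.25% of all genes, and below for 1, against 3.38%. The median log2 fold change of the 10 was 0.29, beside -0.01 over all genes.

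**Figure D1:**
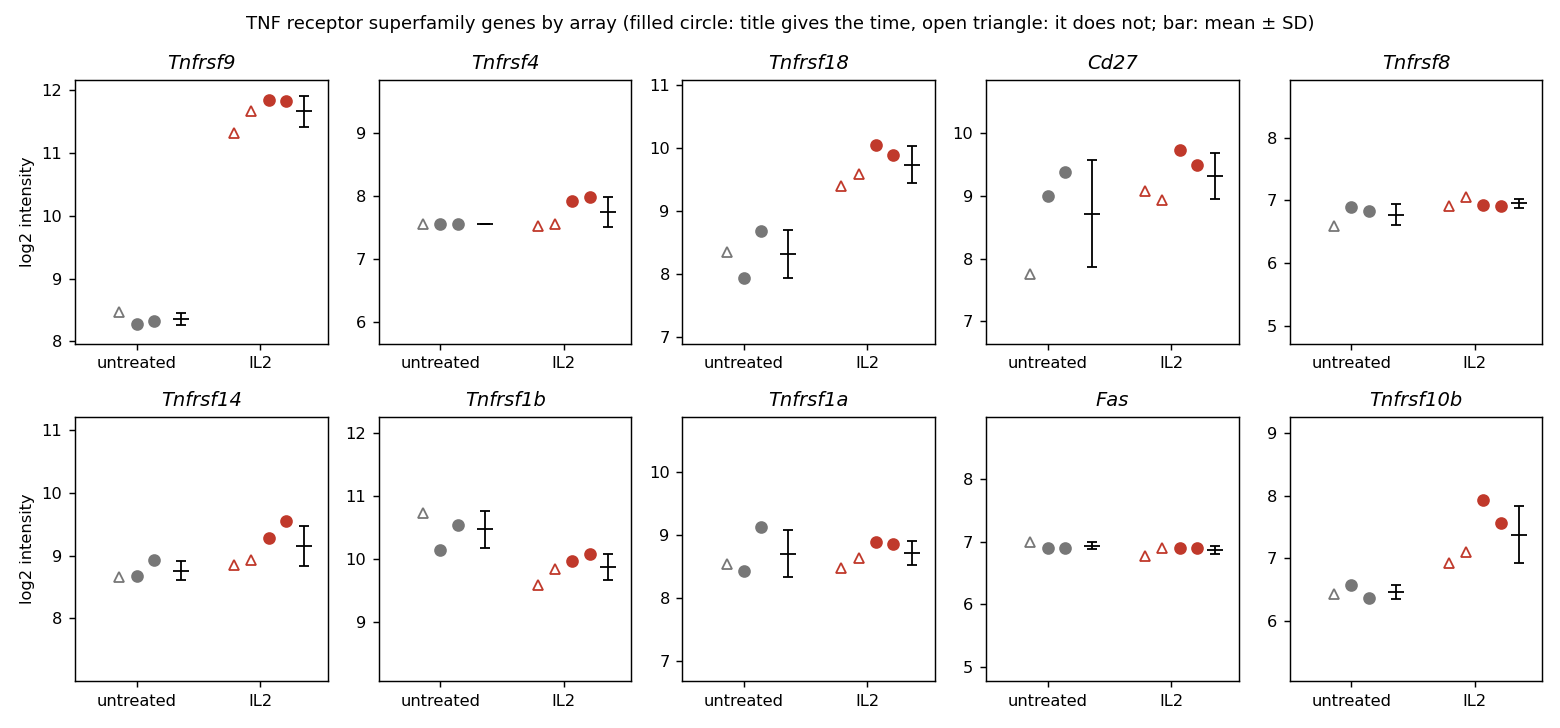
Log2 intensity of the 10 receptor genes on each array (points; filled circles for arrays whose titles give the time, open triangles for the others), with mean ± SD of the 3 untreated and 4 IL2 arrays at the right of each group. All panels cover the same span of log2 units, but levels of different probes cannot be compared. The groups lie far apart for Tnfrsf9 (8.28 to 8.47 against 11.32 to 11.85), while 5 of the 7 Fas points are equal.

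NK cell markers were measured, and so were markers of other cell types, and some of both were called. The summed intensity of 8 NK cell markers (such as Ncr1 and Klrb1c) was 5108 to 8312 in the untreated arrays and 17119 to 21046 with IL2, with 3 of 8 called higher and 0 lower. Their log2 fold changes ran from 0.09 (Klrd1) to 2.27 (Nkg7), and sums of this kind weigh bright probes most. For 8 macrophage and monocyte markers (such as Lyz2 and Csf1r) the sum was 13591 to 14603 untreated and 4768 to 6500 with IL2, with 5 of 8 lower and 0 higher. Their log2 fold changes ran from -3.00 (Vcan) to 0.23 (Fcgr1), and Ccr2 had -0.01. Of 8 neutrophil markers 1 was lower (sum 4632 to 6039 against 1907 to 2761), of 7 B cell markers 1 (14524 to 16030 against 12280 to 13079), and of 8 dendritic cell markers 1 (1821 to 2250 against 1404 to 1519). The called dendritic cell marker was Cd209a (log2 fold change -1.71). In that list 4 of the 8 markers had a positive log2 fold change, and the median was -0.05. Of 8 T cell markers 0 were called by limma (0 also at an unadjusted p under 0.05), with sums of 1717 to 2749 and 1602 to 2849. No marker was listed at 0, but RMA intensities stay above 0, so this alone does not show that a marker was detected. By mean signal over the 7 arrays, some markers of other cell types were among the brightest genes. Cd79b and Cd79a of the B cell list were at percentiles 99.8 and 99.7, and Lyz2 was at 99.5. Others were dim, such as Xcr1 of the dendritic cell list at 31.5. The part of the marker shifts in the receptor results was not tested. In bulk RNA fewer cells of a type cannot be told apart from less RNA per cell. Array medians were 121 to 131.

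Tnfrsf9 encodes 4-1BB, a co-stimulatory receptor that appears on activated T and NK cells. Its log2 intensity was 8.47, 8.28 and 8.32 in untreated replicates 2, 3 and 4 and 11.32, 11.67, 11.85 and 11.83 in IL2 replicates 1 to 4. On the linear scale this is 311 to 355 against 2553 to 3688, and the groups were far apart. The mean went from 8.36 ± 0.10 (SD, n = 3) to 11.67 ± 0.25 (n = 4), a log2 fold change of 3.31 (SE 0.14, 95% interval 2.99 to 3.63, limma adjusted p = 5.98e-05). This was number 5 of 19752 genes ranked from the largest rise down. Leaving out any 1 of the 7 arrays kept the call (log2 fold changes of 3.25 to 3.43). Within the arrays whose titles give the time (2 against 2) the log2 fold change was 3.54, and within the others (2 against 1) it was 3.02, where the call ended (limma adjusted p = 0.356).

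The reference table of RefSeq promoters (GRCm38.p6) held 2 start sites for Tnfrsf9, and both windows are shown because the array cannot say which start was used. Each gives the 250 bases before the start, 5′ to 3′ on the plus strand, the first at chr4:150919905-150920154 and the second, downstream start at chr4:150927749-150927998. Capitals mark matches to the GAS element bound by STAT factors (TTCNNNGAA), the AP-1 element (TGANTCA) and the NF-kB consensus, each searched on both strands.
Tnfrsf9, first start: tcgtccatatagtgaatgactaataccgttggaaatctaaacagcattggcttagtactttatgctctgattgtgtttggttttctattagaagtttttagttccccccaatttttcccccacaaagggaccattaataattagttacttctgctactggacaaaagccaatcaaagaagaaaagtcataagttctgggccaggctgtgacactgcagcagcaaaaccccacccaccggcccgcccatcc
Tnfrsf9, second start: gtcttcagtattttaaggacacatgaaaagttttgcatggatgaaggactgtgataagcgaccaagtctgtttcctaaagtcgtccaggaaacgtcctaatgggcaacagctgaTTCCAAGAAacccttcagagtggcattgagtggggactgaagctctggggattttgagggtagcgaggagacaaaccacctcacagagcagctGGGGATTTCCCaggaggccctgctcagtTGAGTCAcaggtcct
The first window held none of these letters. The second held a GAS match that begins 136 bases before the start, 2 NF-kB matches that overlap each other and begin 43 and 42 bases before it, and an AP-1 match at 15 bases. Of 32851 promoter windows of this length in the table, 7.02% held a GAS match, 6.75% an AP-1 match and 3.9% an NF-kB match. A match describes the letters only and is not evidence of binding.

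Tnfrsf18 encodes GITR, a co-stimulatory receptor of activated lymphocytes and regulatory T cells. Its log2 intensity was 8.35, 7.93 and 8.69 in untreated replicates 2, 3 and 4 and 9.40, 9.59, 10.05 and 9.90 in IL2 replicates 1 to 4. The lowest IL2 array thus lay above the highest untreated array. The mean rose from 8.32 ± 0.38 (SD, n = 3) to 9.74 ± 0.30 (n = 4), by 1.42 (SE 0.21, 95% interval 0.92 to 1.91, limma adjusted p = 0.015). The call was less firm than the size: leaving out untreated replicate 2 or 3, or any of IL2 replicates 2 to 4, ended it, with log2 fold changes of 1.22 to 1.46 and a limma adjusted p between 0.0519 and 0.0663. Without untreated replicate 4 or IL2 replicate 1 the log2 fold changes were 1.598 and 1.53 and the gene stayed called (limma adjusted p = 0.0353 and 0.0177). Within the arrays with and without the time in the title the log2 fold changes were 1.67 and 1.15, neither called (limma adjusted p = 0.109 and 0.358).

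Tnfrsf4, which encodes OX40, is the gene next to Tnfrsf18 on chromosome 4 in the reference order. Its log2 intensity was 7.56 on all 3 untreated arrays and 7.52, 7.56, 7.92 and 7.98 in IL2 replicates 1 to 4. IL2 replicates 3 and 4 thus lay above all untreated arrays and IL2 replicates 1 and 2 did not. The difference of 0.19 (SE 0.13, 95% interval -0.12 to 0.49) did not pass the test (limma adjusted p = 0.641). The untreated SD was 0.0022, and an untreated and an IL2 array held exactly the same value. Within the arrays whose titles give the time the difference was 0.39 and within the others -0.0158.

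The promoter windows of these neighbours are set side by side because 1 of the genes was called and the other was not. They come from the same RefSeq table, plus strand, 250 bases before the start, at chr4:156026072-156026321 for Tnfrsf18 and chr4:156013445-156013694 for Tnfrsf4, with the same motifs in capitals.
Tnfrsf18: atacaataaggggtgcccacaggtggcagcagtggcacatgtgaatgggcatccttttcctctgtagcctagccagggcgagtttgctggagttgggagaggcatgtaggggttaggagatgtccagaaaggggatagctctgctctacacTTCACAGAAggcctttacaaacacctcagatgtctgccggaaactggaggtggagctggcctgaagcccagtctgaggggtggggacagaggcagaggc
Tnfrsf4: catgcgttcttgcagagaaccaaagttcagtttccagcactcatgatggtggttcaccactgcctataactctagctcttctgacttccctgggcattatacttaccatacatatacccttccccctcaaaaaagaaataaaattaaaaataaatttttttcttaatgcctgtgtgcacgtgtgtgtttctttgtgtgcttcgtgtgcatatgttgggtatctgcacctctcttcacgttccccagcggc
Tnfrsf18 held a GAS match that begins 99 bases before the start and no AP-1 or NF-kB match, and the Tnfrsf4 window held none of the 3. GAS matches were also in the windows of receptor genes that were not called. They begin 244 bases before the start in Tnfrsf1a, 181 in Tnfrsf1b and 93 in Fas. In all, 5 of 10 windows held a GAS match, beside 7.02% of the 32851 promoter windows. The 10 windows came from 9 of the 10 genes, with 2 for Tnfrsf9 and none for Tnfrsf10b. AP-1 matches were in 3 windows (the second of Tnfrsf9, Tnfrsf8 and Fas), beside 6.75%. NF-kB matches were in 2 (the second of Tnfrsf9, and Tnfrsf8), beside 3.9%. These shares were not compared by a test.

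Of the other co-stimulatory members, Cd27, Tnfrsf8 and Tnfrsf14 were not called. Cd27, the receptor of CD70, had log2 intensities of 7.76, 9.003 and 9.38 in untreated replicates 2, 3 and 4 and 9.08, 8.94, 9.74 and 9.48 with IL2. The groups overlapped, and untreated replicate 2 lay far below the other 6 arrays. The difference was 0.59 (SE 0.38, 95% interval -0.29 to 1.48, limma adjusted p = 0.605), and leaving out untreated replicate 2 gave 0.12, while leaving out untreated replicate 4 gave 0.93. T cells also express Cd27, and the summed intensity of the T cell markers was 1717, 2254 and 2749 in untreated replicates 2, 3 and 4 and 1602, 1783, 2849 and 2759 in IL2 replicates 1 to 4. Untreated replicate 2 was the lowest untreated array on both measures, and IL2 replicates 3 and 4 were the highest IL2 arrays on both. IL2 replicates 1 and 2 had T cell sums near that of untreated replicate 2 (1602 and 1783 against 1717). Their Cd27 values were higher than in that array (9.08 and 8.94 against 7.76). The part of T cells in the Cd27 values was not tested.

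Tnfrsf8, which encodes CD30, had log2 intensities of 6.59, 6.90 and 6.83 untreated and 6.92, 7.05, 6.93 and 6.91 with IL2. The IL2 arrays lay just above the untreated ones, by a difference of 0.18 in the means (SE 0.10, 95% interval -0.04 to 0.40, limma adjusted p = 0.508). Tnfrsf14 encodes HVEM, which binds the TNF family ligand LIGHT and also the immunoglobulin family proteins BTLA and CD160. Its log2 intensity was 8.66, 8.68 and 8.93 untreated and 8.85, 8.92, 9.28 and 9.54 with IL2. The groups overlapped in untreated replicate 4, and the difference of 0.39 (SE 0.18, 95% interval -0.02 to 0.80) did not pass the test (limma adjusted p = 0.403).

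The 2 receptors of TNF itself gave different values, which were not compared by a test. Tnfrsf1b, the TNFR2 gene, had log2 intensities of 10.73, 10.15 and 10.55 in untreated replicates 2, 3 and 4 and 9.59, 9.84, 9.97 and 10.08 with IL2. Every IL2 array was below every untreated array, with IL2 replicate 4 and untreated replicate 3 the nearest. The difference was -0.60 (SE 0.17, 95% interval -0.98 to -0.22), at an unadjusted limma p of 0.00704 and an adjusted p of 0.129. After quantile normalization of the arrays again it was -0.73 and passed (limma adjusted p = 0.00571). Within the arrays with the time in the title it was -0.32 and within the others -1.01. Monocytes and macrophages also express this receptor, and their summed markers were lower in the IL2 arrays (4768 to 6500 against 13591 to 14603). Of those 8 markers 3 were not called. The part of these cells in the Tnfrsf1b values was not tested. Tnfrsf1a, the TNFR1 gene, had log2 intensities of 8.54, 8.43 and 9.13 untreated and 8.48, 8.63, 8.89 and 8.86 with IL2. The groups overlapped widely, with a difference of 0.02 (SE 0.18, 95% interval -0.41 to 0.44, limma adjusted p = 0.986) and no stable sign. It turned to between -0.12 and -0.03 when either untreated replicate 2, untreated replicate 3, IL2 replicate 3 or IL2 replicate 4 was left out, and to -0.11 after quantile normalization again.

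Of the other death domain receptors, Tnfrsf10b had separate groups without passing the test, and Fas was not called. Tnfrsf10b had log2 intensities of 6.44, 6.58 and 6.37 in untreated replicates 2, 3 and 4 and 6.92, 7.10, 7.92 and 7.56 with IL2. All IL2 arrays were above all untreated ones, and IL2 replicates 3 and 4 were the highest. The mean was 6.46 ± 0.11 (SD, n = 3) against 7.38 ± 0.45 (n = 4), a difference of 0.91 (SE 0.23, 95% interval 0.38 to 1.45) that did not pass the test (limma adjusted p = 0.0997). It passed in 5 of 18 alternatives, among them without IL2 replicate 1 (1.06, limma adjusted p = 0.0473), with title style as a block and after a second quantile normalization. Another was a fit restricted to the brighter genes, from the median signal up. Tnfrsf10b reached that cut (mean over all arrays 6.98, percentile 51.3) only through its IL2 values, so this call is no separate support. Its untreated mean of 6.46 lay below the all-array means of Tnfrsf8 (6.88) and Fas (6.89), which missed the cut. With any of the other 6 arrays left out Tnfrsf10b did not pass. The differences there were 0.73 to 1.003, at a limma adjusted p of up to 0.305. Within the arrays with and without the time in the title the differences were 1.26 and 0.57 (limma adjusted p = 0.0875 and 0.401). Fas had log2 intensities of 6.996, 6.90 and 6.90 untreated and 6.77, 6.90, 6.90 and 6.90 with IL2. On 5 of the 7 arrays the Fas values were exactly equal, so the spread of this probe is not a measure of replicate error. The difference was -0.07 (SE 0.07, 95% interval -0.24 to 0.11, limma adjusted p = 0.8).

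**Figure D2:**
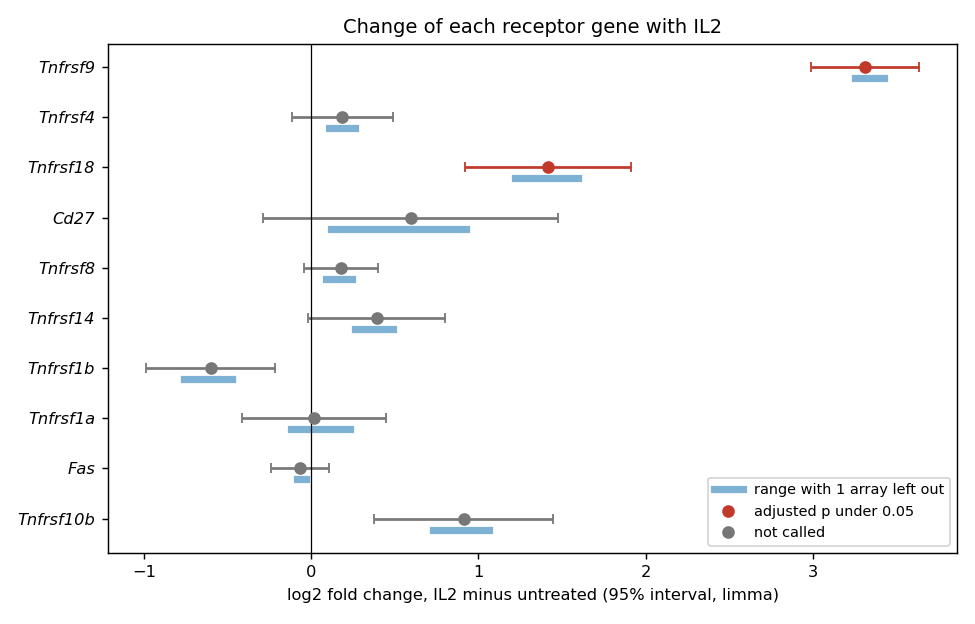
Log2 fold change (IL2 minus untreated) of the 10 receptor genes with its 95% interval from limma (points and bars; red for adjusted p under 0.05, grey for genes not called), and the range of values with 1 array left out (blue bars). Tnfrsf9 (3.31) and Tnfrsf18 (1.42) are the called genes, and the intervals of Tnfrsf10b (0.38 to 1.45) and Tnfrsf1b (-0.98 to -0.22) do not reach 0 either before adjustment.

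Among the IL2 arrays, replicate 1 was below the group mean for all 10 receptor genes, and replicates 3 and 4 were above it for 9 each. Of all genes, 42.4% were above the group mean in IL2 replicate 1, 61.9% in replicate 3 and 63.4% in replicate 4. For the brighter genes, from the median signal up, those shares were 20.2%, 73.8% and 73.7%. The difference between IL2 and untreated arrays was more positive in the arrays whose titles give the time for 8 of the 10 genes. It was less positive for the other 2, Tnfrsf8 and Cd27. The share of all genes with a more positive difference was not counted, so this is not read as a trait of these receptors. For Tnfrsf1b (-0.32 against -1.01) and Fas (0 against -0.16) more positive meant a smaller change. Only 1 untreated array lacks the time in its title, so the untreated side of that title style rests on 1 array. The IL2 arrays enter these differences as well. IL2 replicates 3 and 4, above the group mean for 9 genes each, are the IL2 arrays titled with the time. An interaction fitted in limma after the values had been seen was called for 0 of 19752 genes (2539 at an unadjusted p under 0.05), and it does not settle whether any of the 10 genes differed.

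**Figure D3:**
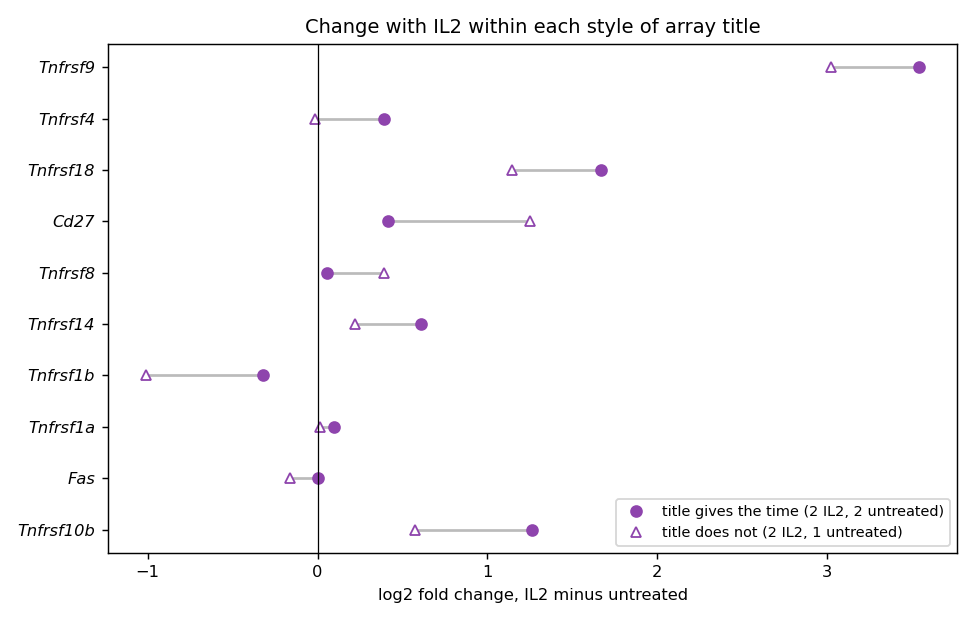
Log2 fold change (IL2 minus untreated) of each receptor gene within the arrays whose titles give the time (filled circles, 2 IL2 and 2 untreated) and within those whose titles do not (open triangles, 2 IL2 and 1 untreated). Tnfrsf9 is high in both (3.54 and 3.02), whereas Cd27 is higher in the second set (0.42 and 1.25).

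Of 13 genes listed as ligands of these receptors, 3 were called, all higher, beside 2.08% of all genes called higher. The list includes Ltb, although its product binds a receptor outside the 10. The 3 called ligands belong to the death domain receptors and the TNF receptors. Fasl, the ligand of Fas, had log2 intensities of 8.16, 7.15 and 7.41 untreated and 9.47, 9.82, 9.07 and 9.07 with IL2, and rose by 1.78 (SE 0.27, limma adjusted p = 0.0162). Tnfsf10, which encodes TRAIL, had 6.95, 6.36 and 7.11 untreated and 7.69, 8.05, 8.55 and 8.33 with IL2, and rose by 1.35 (SE 0.24, limma adjusted p = 0.0305). Tnf had 8.58, 8.33 and 8.47 untreated and 8.997, 9.39, 9.41 and 9.36 with IL2, and rose by 0.83 (SE 0.12, limma adjusted p = 0.0143). In each of these genes the groups did not overlap. The receptor genes Fas (-0.07), Tnfrsf10b (0.91), Tnfrsf1a (0.02) and Tnfrsf1b (-0.60) were not called over the same arrays.

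These ligand calls were less stable than that of Tnfrsf9. The count of 3 went to 0 when untreated replicate 3 or 4, or any of IL2 replicates 2 to 4, was left out. It was 2 without untreated replicate 2, where Tnfsf10 lost its call. The limma adjusted p-values of the lost calls were 0.0503 to 0.0964 for Fasl, 0.0616 to 0.0769 for Tnf and 0.0741 to 0.113 for Tnfsf10, with log2 fold changes of at least 1.57, 0.77 and 1.13. In the arrays titled with the time, and then in those titled without it, they were 1.79 and 1.48 for Fasl, 0.99 and 0.61 for Tnf and 1.71 and 0.92 for Tnfsf10.

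The ligand genes of the 2 called receptors were not called. Tnfsf9, the 4-1BB ligand, had a difference of -0.14 (SE 0.20, 95% interval -0.59 to 0.31) and Tnfsf18, the GITR ligand, of 0.02 (SE 0.11, 95% interval -0.23 to 0.27). Tnfsf4, the OX40 ligand, had 0.32, and Cd70 had group means of 6.14 in both groups. For Tnfrsf8 the ligand Tnfsf8 differed by 1.10 (SE 0.33, limma adjusted p = 0.164), from 5.37, 5.49 and 6.17 untreated to 6.17, 6.41, 7.32 and 7.21 with IL2. The HVEM partners Tnfsf14, Cd160 and Btla had 0.31, 0.69 and -0.26. Lta, which binds both TNF receptors, had 0.67 (limma adjusted p = 0.128), and Ltb, whose product joins LTA to bind another receptor of the family, LTBR, had -0.20. None of these 10 passed the test. At an unadjusted limma p under 0.05 there were 5 of them, all higher (Tnfsf4, Tnfsf8, Tnfsf14, Cd160 and Lta), and 8 of the 13 ligands with the called genes, beside 13.5% of all genes. The median over the 13 ligands was 0.32.

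**Figure D4:**
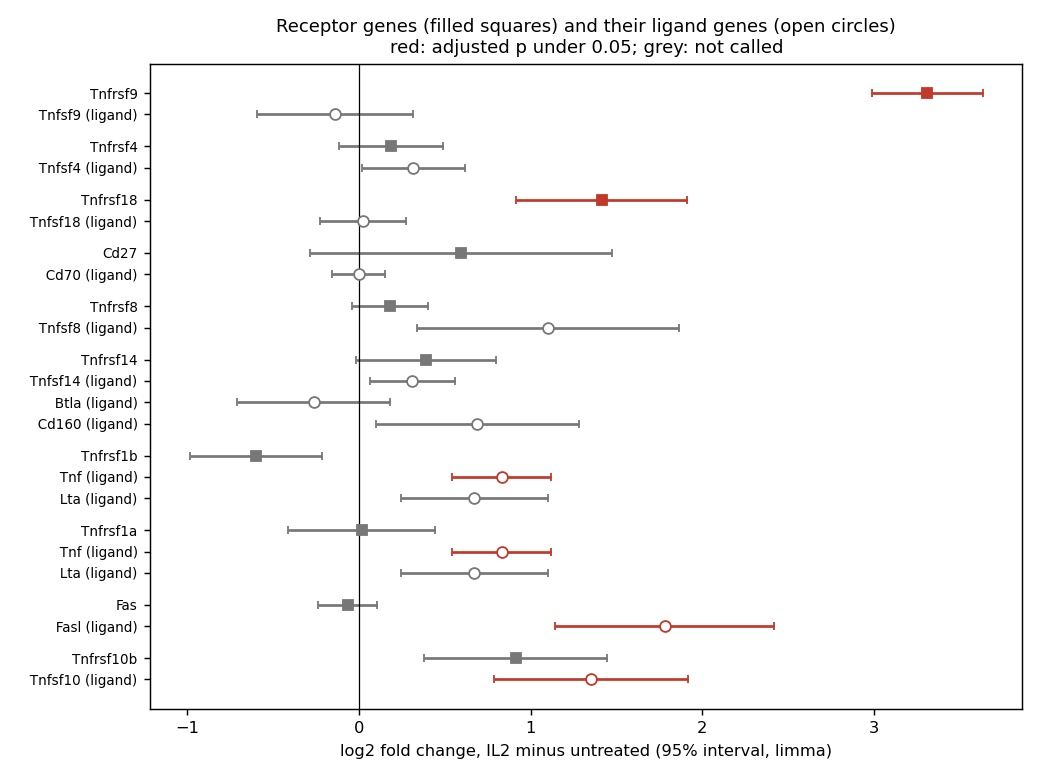
Log2 fold change (IL2 minus untreated) with its 95% limma interval for each receptor gene (filled squares) and its ligand genes (open circles), red for adjusted p under 0.05 and grey for not called; Tnf and Lta appear under both TNF receptors. Tnfrsf9 and Tnfrsf18 are called with ligands near 0 (-0.14 and 0.02), and Fasl, Tnf and Tnfsf10 are called with receptors that are not.

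The other 18 measured genes of the receptor superfamily gave 0 calls in either direction (limma; 3 at an unadjusted p under 0.05, near the 13.5% of all genes), with differences from -0.58 to 0.52 and a median of -0.12. Cd40, a receptor of B cells and antigen-presenting cells, had the second largest difference of the 18 (0.52, SE 0.16, limma adjusted p = 0.189), and Tnfrsf21, a death domain receptor, the largest (-0.58, SE 0.24, limma adjusted p = 0.35). Of 15 adaptor and cell death genes measured, 1 was higher and 0 lower, beside 2.08% and 0.901% of all genes. The median was 0.13, and 3 of the 15 had an unadjusted limma p under 0.05, beside 13.5% of all genes. The called gene was Mlkl, the effector of necroptosis (1.40, SE 0.28, limma adjusted p = 0.0443). Its log2 intensity was 6.50, 6.37 and 6.92 untreated and 7.44, 7.70, 8.59 and 8.25 with IL2. Leaving out any array but IL2 replicate 1 ended its call (limma adjusted p between 0.0994 and 0.168). Of 16 NF-kB subunits, kinases and inhibitors, 0 were called (limma; 2 at an unadjusted p under 0.05, again near the 13.5% of all genes), with a median of 0.05 and the largest difference in Tab2, an adaptor of the kinase TAK1 (0.36, SE 0.13, limma adjusted p = 0.272).

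The genes whose pattern over the 7 arrays was nearest to Tnfrsf9 were Ifng, Iigp1 and Xcl1. Nearness was the root mean square difference of log2 values after each gene was centred on its mean, and it was 0.18, 0.184 and 0.234. Nearest to Tnfrsf18 were Tnfsf10 (0.0858), Alg3 (0.0988) and Sfxn1 (0.108). Their log2 fold changes between the groups were 3.47, 3.16 and 3.23 for the first set and 1.35, 1.32 and 1.35 for the second. Fold changes close to that of the receptor gene follow from this choice, because nearness depends on the group difference.

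On the reference map 6 of the receptor genes lie on chromosome 4, 2 on chromosome 6 and 1 each on chromosomes 14 and 19. Tnfrsf4 adjoins Tnfrsf18, and Tnfrsf1b adjoins Tnfrsf8, among protein-coding genes. Neither of the genes beside Tnfrsf9 was called, at 0.75 for Park7 (limma adjusted p = 0.307) and -0.01 for Per3. Errfi1, the next gene beyond Park7, was higher (1.44, limma adjusted p = 0.00234). Beside Fas, Acta2 (-0.55) and Ch25h (0.04) were not called, and Lipa, beyond Ch25h, was lower (-1.70, limma adjusted p = 0.00368). Errfi1 and Lipa were named after their values were seen. On the far sides of the adjoining receptor genes, Sdf4 beside Tnfrsf4 (0.21) and Ttll10 beside Tnfrsf18 (-0.14) were not called. Dhrs3 beside Tnfrsf1b was lower (-0.72, limma adjusted p = 0.0495), next to -0.60 for Tnfrsf1b and 0.18 for Tnfrsf8. Beside Cd27, Tapbpl had 0.83 (limma adjusted p = 0.0723) and Tuba3a 0.10.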

How the data were processed

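The intensity values were deposited as 1 RMA value per transcript cluster and array on a linear scale; Affymetrix Power Tools and RMA are named in the submitters' processing notes, with versions, settings and the set of arrays normalized together not given in the sources used here. Of 24922 probes, 21425 had 1 gene symbol in the platform table, 1399 several and 2098 none. Values were taken to log2 with no offset, and each gene was represented by its brightest probe, without a signal filter (19752 genes). Exactly equal values on 2 or more arrays occurred in 53.3% of probes; their effect on the spread was not tested. limma 3.58.1 under R 4.3.3 fitted IL2 against untreated over all genes (7.68 degrees of freedom), with Benjamini-Hochberg adjustment over all of them and a threshold of 0.05. The number of arrays limits the precision. The fit was tested on simulated data, which does not show that the calls in these arrays are right.

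The receptor genes, the gene lists and the tests were chosen with earlier results of these data known. Named genes were the 10 receptors, their ligands, the called genes of each other list (or the largest difference where none was called), the 3 nearest patterns of each called receptor and chromosomal neighbours, with a few marker genes. Cd40 and the values of alternatives were added after they had been seen. Some members of the lists are not reported here. Alternatives were the replicate number or title style as a block, each title style alone, quantile normalization again, median centring, genes at or above the median signal, array quality weights (statmod 1.5.0), trended robust eBayes, the mean of all probes, all probes, and each array left out.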

Additional observations from a re-analysis of the deposited data

Results flagged for a closer look

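Fas in IL2 replicate 1 (log2 intensity 6.766) stood apart from the other IL2 arrays, which held the same value to the last digit, so that the gap was the whole range of the group. A flag of this kind comes up by chance in about 1 of 20 groups, and the equal values make it certain for any array that differs here. Of the 10 receptor genes this was the only one flagged.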

How the results depend on the processing

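Tnfrsf9 was called in 17 of 18 alternatives, Tnfrsf18 in 11 and Tnfrsf10b in 5. With 1 array left out in turn, 1 to 3 receptor genes, 0 to 3 ligands, 0 to 2 adaptor genes, 0 to 1 NF-kB genes and 134 to 517 of all genes were higher, and 65 to 152 of all genes were lower; of the other receptors 0 to 1 were higher and 0 to 1 lower. Over arrays whose titles give the time, 1 receptor gene, 1 ligand, 0 adaptor genes and 81 of all genes were higher and 22 lower. Over those whose titles do not, 0 receptor genes, 0 ligands, 0 adaptor genes and 0 of all genes were called in limma either way (2630 at an unadjusted p under 0.05); the fit assumes that its lone untreated array varies as IL2 arrays do. After quantile normalization again 1 receptor gene (Tnfrsf1b) and 1 other receptor were lower, 2 adaptor genes higher, and 694 of all genes higher and 577 lower, which moves the higher share of calls below that of the 410 and 178 reported. Adaptor genes called higher were 2 when only the brighter genes (from the median signal up) were fitted and 0 with array quality weights. With title style as a block 6 ligands and 1 NF-kB gene were higher. Deviations of same-numbered arrays from their group means correlated at 0.46, -0.299 and 0.308 for numbers 2, 3 and 4. Arrays with different numbers were not compared, so these values do not settle whether the numbers pair the arrays. With the replicate block 5 ligands were higher, and Tnfrsf10b was called among 3 receptor genes (1.06, limma adjusted p = 0.0315). The difference of Tnfrsf4 turned to -0.0158 over arrays whose titles lack the time, and that of Tnfrsf1a to -0.11 after quantile normalization again and between -0.12 and 0.23 with 1 array left out. Where calls were lost, the cause was not tested; fewer arrays were fitted in the leave-out and title-style settings. No detection p-values were used, and Tnfrsf8 and Fas lay below the median signal. Tnfrsf10b lay just above it over all arrays (percentile 51.3), but had the lowest untreated mean of the 10 (6.46). Its call among the brighter genes, counted in the 5, thus depended on its IL2 values to enter that fit.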
